A study of Homo sapiens with 33 samples.

Results

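The annexins are described here as a family of 10 genes, ANXA1, ANXA2, ANXA3, ANXA4, ANXA5, ANXA6, ANXA7, ANXA9, ANXA10 and ANXA11. They were taken by symbol from the gene tables of platinum-sensitive and platinum-resistant ovarian carcinoma lines, and all 10 were among the 29744 genes listed. The study sequenced mRNA of 11 human lines of high-grade serous ovarian carcinoma (HGSOC), each in 3 replicates, giving 33 libraries. OVCAR3 and OVCAR4 are platinum-sensitive lines, and OVCAR3 ResA, OVCAR3 ResB, OVCAR4 ResA and OVCAR4 ResB are the resistant lines that the study derived from them by repeated short pulses of cisplatin. Each ResA and ResB line was selected independently and was no longer kept in cisplatin. PEA1 (sensitive) and PEA2 (resistant) are commercial lines from one patient, as are PEO1 (sensitive), PEO4 and PEO6 (both resistant, and thought to come from one clone). The labels name no treatment of the cells used for RNA. The labels do not say whether replicates were separate cultures, so the p-values below measure the spread between these libraries, and a line stands for itself and not for resistance in general.

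Annexins are cytosolic proteins that bind acidic phospholipids of membranes when calcium rises, through a conserved core of repeats. Their variable amino-terminal tails bind partners such as S100 proteins. They are known for membrane repair, vesicle fusion and exocytosis, control of coagulation and inflammation, and, in epithelial cancers, for association with invasion and drug response. ANXA4 is found mainly in epithelial and secretory cells, where it gathers on membranes when calcium rises, and it has been studied as a platinum-response gene chiefly in clear cell ovarian carcinoma, another subtype than that of these lines. The question here was how it and its relatives differed between sensitive lines and the resistant lines of the same origin.

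The genes lie on several chromosomes (coordinates from RefSeq, GRCh38.p14). ANXA4 spans chr2:69643808-69827112, ANXA9 chr1:150977306-150995634, ANXA1 chr9:73151865-73170393 and ANXA2 chr15:60347151-60397986. ANXA3 (chr4:78551770-78610447), ANXA5 (chr4:121667946-121696980) and ANXA10 (chr4:168092537-168187736) share a chromosome without adjoining each other, as do ANXA7 (chr10:73375101-73414058) and ANXA11 (chr10:80150889-80205808). ANXA6 is at chr5:151100706-151157779. In RefSeq 3 other loci overlap ANXA4 (SMANTIS, LOC124906149 and LOC124906021), 1 overlaps ANXA2, 1 ANXA9 and 2 ANXA10. The strand used in counting was not stated, so whether reads of such loci entered the values of these annexins could not be checked.

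Promoter sequences are shown for the 3 annexins with the widest changes in the OVCAR families, ANXA4, ANXA9 and ANXA1. Each is the 250 bases before a start site annotated in RefSeq (GRCh38.p14, plus strand, 5′ to 3′), and capitals mark motifs found by a search of both strands. The motifs searched were the TATA box (TATAAA), the CCAAT box (CCAAT), the GC box (GGGCGG), an AP-1 site (TGANTCA), a GAS element (TTCNNNGAA) and an E-box (CACGTG), which occurred in 10.7%, 32.0%, 42.6%, 6.57%, 6.57% and 6.34% of the 35116 promoter windows of this length. ANXA4 has 2 annotated starts, at chr2:69643558-69643807 and chr2:69741884-69742133. ANXA9 is at chr1:150982042-150982291 and ANXA1 at chr9:73151615-73151864.
ANXA4 first start: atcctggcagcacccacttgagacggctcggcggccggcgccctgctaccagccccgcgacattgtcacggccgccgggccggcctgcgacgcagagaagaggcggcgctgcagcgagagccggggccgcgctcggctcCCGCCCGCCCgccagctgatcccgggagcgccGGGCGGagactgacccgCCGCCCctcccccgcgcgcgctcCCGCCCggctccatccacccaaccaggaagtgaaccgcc
ANXA4 second start: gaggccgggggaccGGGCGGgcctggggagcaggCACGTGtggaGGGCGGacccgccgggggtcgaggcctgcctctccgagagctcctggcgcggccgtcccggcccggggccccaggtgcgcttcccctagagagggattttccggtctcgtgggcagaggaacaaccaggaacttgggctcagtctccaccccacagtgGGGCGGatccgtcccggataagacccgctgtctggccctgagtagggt
ANXA9: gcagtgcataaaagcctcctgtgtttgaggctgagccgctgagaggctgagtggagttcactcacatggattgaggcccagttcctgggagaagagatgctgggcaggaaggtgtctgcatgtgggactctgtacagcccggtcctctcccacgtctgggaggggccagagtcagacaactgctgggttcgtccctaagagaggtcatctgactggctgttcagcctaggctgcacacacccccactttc
ANXA1: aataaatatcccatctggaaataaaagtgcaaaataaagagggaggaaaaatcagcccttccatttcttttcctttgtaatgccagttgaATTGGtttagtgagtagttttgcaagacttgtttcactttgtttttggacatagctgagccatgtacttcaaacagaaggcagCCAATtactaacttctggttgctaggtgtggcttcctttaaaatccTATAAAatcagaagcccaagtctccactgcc
The first ANXA4 promoter was 77.2% G or C with 36 CpG dinucleotides, against medians of 58.0% and 11 over all windows, and held 5 GC boxes. The second was 71.6% G or C with 21 CpG, 3 GC boxes and 1 E-box. The ANXA1 window differed from both in composition, with 38.4% G or C, no CpG, 1 TATA box and 2 CCAAT boxes. The ANXA9 window was 58.0% G or C with 4 CpG and held none of these motifs. It lies inside the span given above for the gene, and no window before the 5′ end of that span was among those searched. These matches describe the letters of the windows, and gene tables cannot say which ANXA4 start was used.

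Each library held between 18058985 and 43394009 estimated counts. Levels are given as TPM, an abundance that is divided by gene length and scaled to the library, so that genes can be compared with each other. In 3 libraries the mitochondrial rRNAs RNR1 and RNR2 took a share of counts unlike that in the other replicates of the line. It was 9.23% and 13.1% in replicate 1 of OVCAR4 ResA and OVCAR4 ResB, against 2.02% to 2.47% in their other replicates, and 1.12% in OVCAR3 ResB replicate 3, against 5.97% and 8.88%. In OVCAR4 itself it ran from 5.18% to 14.8%. The part of these differences in the annexin values was not tested. Epithelial identity was checked with 8 markers, whose summed TPM was between 2290 and 7393 in the libraries of 10 lines. It was only 405 to 447 TPM in PEA1, where EPCAM had 12.6 to 14.9 TPM, KRT7 2.63 to 3.26 TPM and CDH1 0.290 to 2.26 TPM, far below their means in PEA2 (575 ± 36.5, 1186 ± 119 and 204 ± 26.2 TPM; SD, n = 3). KRT8 and KRT18 were lower in PEA1 but well expressed, at 128 ± 7.36 and 206 ± 27.5 TPM against 832 ± 40.6 and 878 ± 65.5 TPM in PEA2 (SD, n = 3). PAX8, a lineage marker of Mullerian epithelium, was at 74.9 ± 12.7 TPM in PEA1 and 61.7 ± 8.68 TPM in PEA2, and WT1 at 2.32 ± 0.222 and 2.25 ± 0.370 TPM (SD, n = 3). MUC16 was below 1 TPM in PEA1, and 4 of the 8 markers were at 10 TPM or more there. Of 4 fibroblast markers, whose summed TPM was 69.6 to 115.9 in PEA1, COL1A1 was at 88.4 ± 20.3 TPM and PDGFRB at 6.55 ± 3.39 TPM, DCN at 0 and THY1 below 1 TPM, and COL1A1 was at 0.879 ± 0.254 TPM in PEA2 (SD, n = 3). The summed fibroblast markers were 149.5 to 202 TPM in PEO1, 92.6 to 129 TPM in PEO4 and 84.2 to 125 TPM in PEO6. The genes behind these sums differed. PDGFRB was below 1 TPM in every line but PEA1, and in PEO6 only THY1 was at 1 TPM or more. Summed leukocyte markers were 52.0 to 54.7 TPM in PEA2 and 10.06 to 23.3 TPM in PEA1. Endothelial markers summed to 5.68 to 8.76 TPM in PEA2 and 0.0132 to 0.109 TPM in PEA1. The leukocyte marker PTPRC and the endothelial marker CDH5 were below 1 TPM in every line but PEA2. In the other lines CD68 was the only one of the 4 leukocyte markers at 1 TPM or more. PEA1 thus kept PAX8 and the keratins KRT8 and KRT18 and had little EPCAM, KRT7 and CDH1. The part of these marker differences in the annexin differences between PEA1 and PEA2 was not tested.

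ANXA2 was the most abundant annexin in 9 of the 11 lines, and ANXA1 in PEO4 and PEO6. The 10 annexins together made up 2304 ± 644 TPM (SD, n = 3) in OVCAR4, the lowest sum, and 5818 ± 749 TPM (SD, n = 3) in OVCAR3 ResA, the highest. ANXA1 and ANXA2 supplied 44.2% of the annexin transcripts in OVCAR4 ResB and 89.5% in PEO6. ANXA4 took 0.292% of them in OVCAR3 and 9.28% in OVCAR4 ResB.

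**Figure D1:**
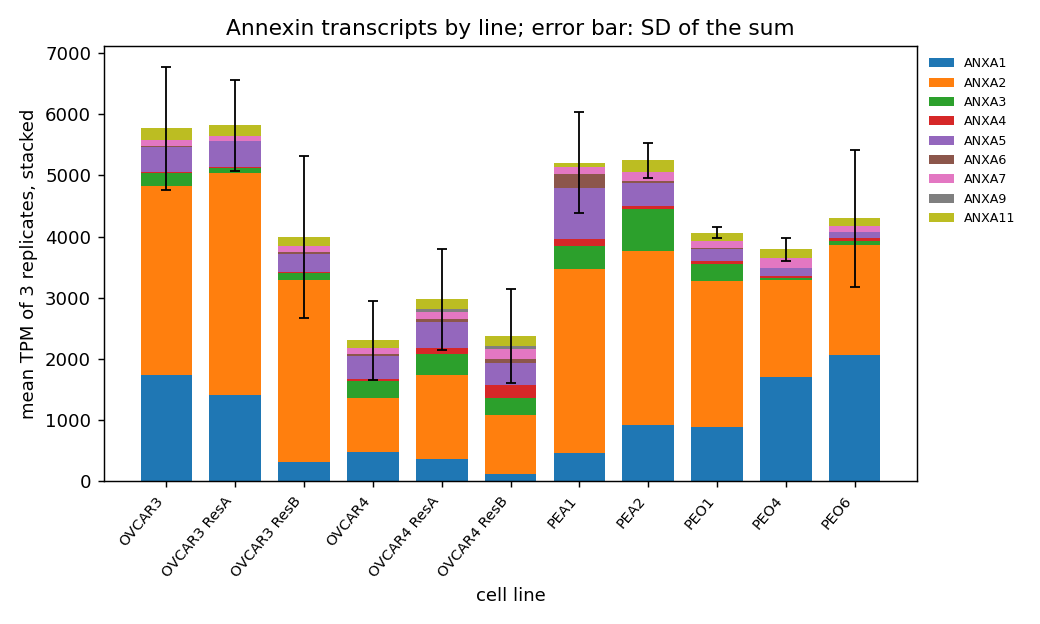
Stacked bars give the mean TPM of each annexin (3 replicates) in each of the 11 lines, and error bars the SD of the summed TPM. The OVCAR4 family had the lowest sums, 2304 to 2974 TPM. The share of ANXA4 was widest in OVCAR4 ResB (9.28%) and OVCAR4 ResA (3.62%), followed by PEA1 (2.35%), with 1.33% in OVCAR4.

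Across the 7 resistant-sensitive pairs, 63 of 70 combinations of a gene and a pair could be tested, and DESeq2 called 33 of them at an adjusted p-value under 0.05 (12 higher and 21 lower in the resistant line). The 7 that could not be tested were ANXA10. In OVCAR3 ResA 5 of the 9 tested annexins were called (all lower), beside 44.9% of all tested genes, and 2 were called without the replicate block. OVCAR3 ResB had 4 calls (1 higher, 3 lower) beside 7.67% of genes. OVCAR4 ResA and OVCAR4 ResB each had 3 calls (2 higher, 1 lower), beside 11.9% and 17.9%. PEA2 had 7 calls (4 higher, 3 lower) beside 47.0%, PEO4 had 7 (2 higher, 5 lower) beside 33.3%, and PEO6 had 4 (1 higher, 3 lower) beside 41.4%. The median log2 change of the 9 annexins was -0.39, -0.41, -0.11, -0.25, 0.12, -0.50 and -0.38 in these 7 pairs in the same order. The median over all tested genes lay between -0.02 and 0.02, where the count scaling of DESeq2 holds it. On TPM it was 0.44 in OVCAR4 ResA and 0.48 in OVCAR4 ResB, and ANXA3 and ANXA11 had the opposite sign there. The annexin medians thus hold for counts scaled in this way. The ResA and ResB comparisons of one family share the parental libraries, as do PEO4 and PEO6, so their values are not independent of each other.

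**Figure D2:**
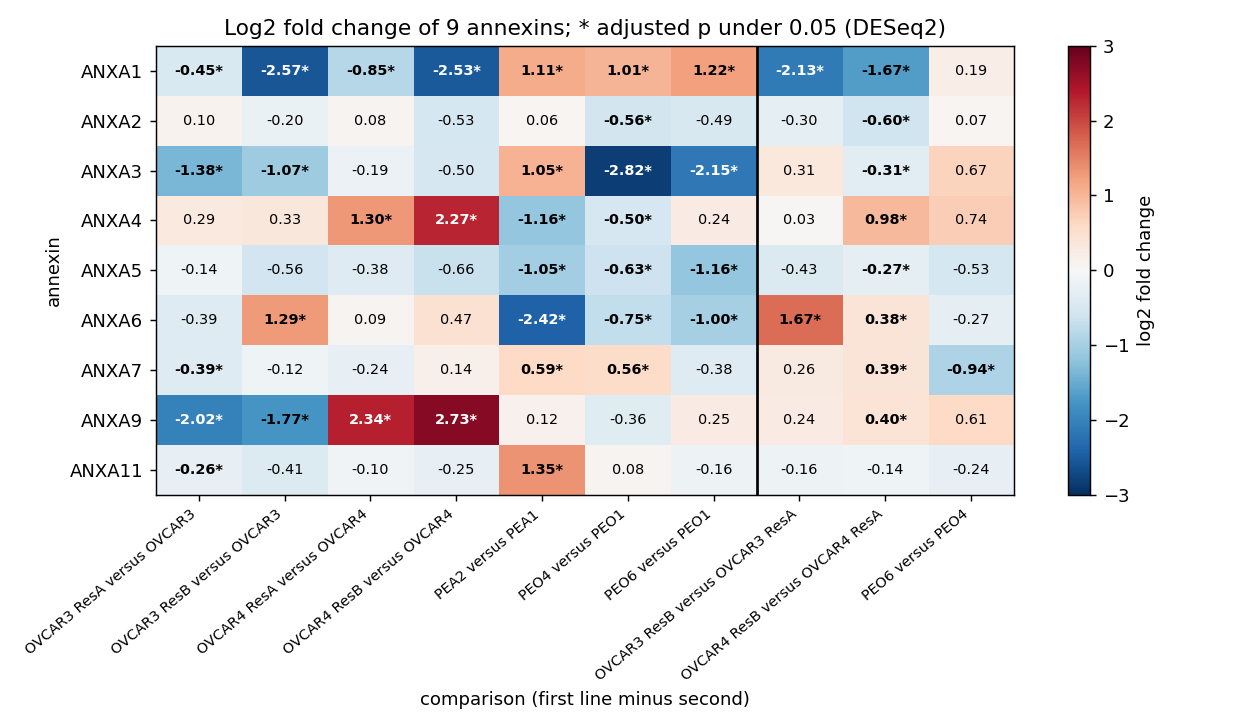
Colours and numbers give the DESeq2 log2 fold change of 9 annexins (vertical axis) in 10 comparisons (horizontal axis, first line minus second), with an asterisk at an adjusted p-value under 0.05 and a line separating the 3 comparisons between resistant lines. ANXA5 was below 0 in all 7 resistant-sensitive pairs, ANXA1 was below 0 in the 4 OVCAR pairs and above 0 in PEA2, PEO4 and PEO6, and ANXA4 reached 2.27 in OVCAR4 ResB.

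ANXA4 was higher in both resistant OVCAR4 lines, lower in PEA2 and PEO4, and not called in OVCAR3 ResA, OVCAR3 ResB or PEO6. In OVCAR4 its level was 29.2, 29.0 and 28.4 TPM in the 3 replicates. OVCAR4 ResA had 93.2, 98.0 and 119.5 TPM, and OVCAR4 ResB 177, 204 and 245.5 TPM. Every ResB library lay above every ResA library, and every ResA library above every parental one. In both resistant lines replicate 1, the library with the high mitochondrial rRNA share, had the lowest level. On the counts, ANXA4 was 2.47-fold higher in ResA (log2 1.30 ± 0.31 SE, DESeq2 adjusted p 0.000661) and 4.84-fold higher in ResB (log2 2.27 ± 0.32 SE, adjusted p 4.94e-11). Same-numbered libraries did not deviate together in these 2 comparisons (correlations of -0.473 to -0.0346 over genes). The ResA call rested on the choice of libraries and tool: the adjusted p was 0.0658 without replicate 2, 0.286 without replicate 3, and 0.0768 by edgeR. ResB exceeded ResA directly by 1.97-fold (log2 0.98 ± 0.08 SE, DESeq2 adjusted p 4.03e-30), so the independently selected lines differed from each other by more than the spread of their replicates.

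In the patient-derived families ANXA4 was lower or was not called. PEA1 had 102, 135 and 118.5 TPM and PEA2 50.7, 52.7 and 42.5 TPM, with no overlap. The DESeq2 log2 change in PEA2 was -1.16 ± 0.23 (SE, adjusted p 2.93e-06). PEO1 had 45.5, 44.5 and 35.5 TPM, PEO4 28.7, 28.6 and 28.8 TPM, and PEO6 48.4, 59.3 and 42.2 TPM. PEO4 was called lower (log2 -0.50 ± 0.20 SE, DESeq2 adjusted p 0.0431), but the adjusted p became 0.437 without replicate 1, 0.441 without replicate 2 and 0.0596 by edgeR. In PEO6 the log2 change was 0.24 ± 0.22 (SE, adjusted p 0.382), and PEO6 against PEO4 gave 0.74 ± 0.31 (SE, DESeq2 adjusted p 0.0822).

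The OVCAR3 family had the lowest ANXA4 of all lines. OVCAR3 had 15.1, 17.0 and 17.1 TPM, ResA 17.6, 23.9 and 25.8 TPM, and ResB 25.9, 19.0 and 22.1 TPM. All resistant libraries were above the parental ones in TPM, but on normalised counts the groups overlapped. The log2 changes were 0.29 ± 0.14 (SE, DESeq2 adjusted p 0.0838) in ResA and 0.33 ± 0.36 (SE, adjusted p 0.775) in ResB. edgeR called the ResA difference, with an adjusted p of 0.0393.

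Ordered by mean TPM over the 11 lines, ANXA4 was highest in OVCAR4 ResB (209 ± 34.5), followed by PEA1 (118 ± 16.4), OVCAR4 ResA (104 ± 14.01), PEO6 (49.96 ± 8.68), PEA2 (48.6 ± 5.42), PEO1 (41.8 ± 5.46), OVCAR4 (28.9 ± 0.398), PEO4 (28.7 ± 0.0766), OVCAR3 ResA (22.4 ± 4.31), OVCAR3 ResB (22.3 ± 3.46) and OVCAR3 (16.4 ± 1.14; SD, n = 3 each). Neighbours whose replicate ranges overlapped were PEA1 and OVCAR4 ResA, the run PEO6, PEA2 and PEO1, OVCAR4 and PEO4, and OVCAR3 ResA and ResB. A sensitive line, PEA1, thus held the second highest level, and the highest and lowest lines differed 12.8-fold.

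**Figure D3:**
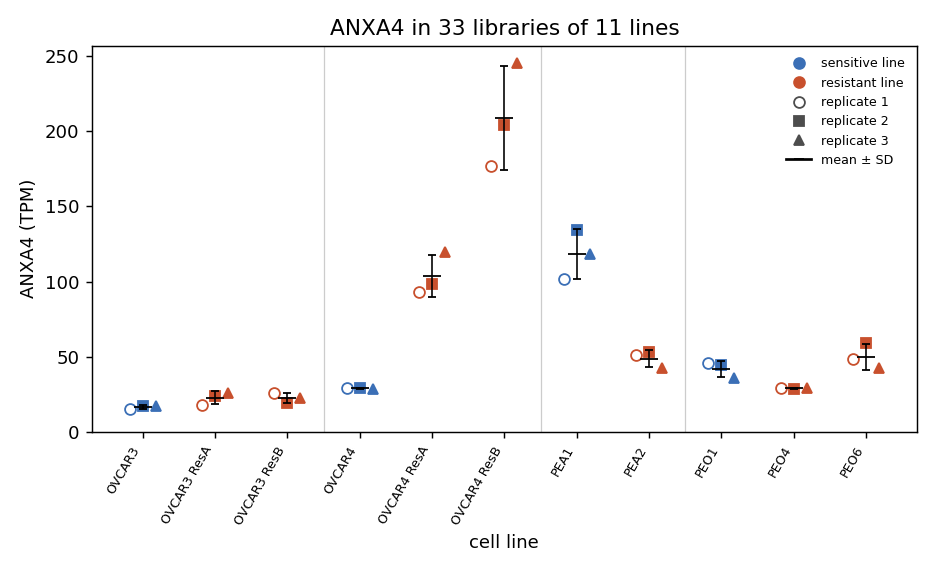
Each point is the ANXA4 level (TPM, linear axis from 0) of 1 library, with shape giving the replicate, colour the role of the line (sensitive or resistant), and bars the mean ± SD of 3 replicates. OVCAR4 ResB libraries sit between 177 and 245.5 TPM above all others, and the 3 OVCAR3 lines lie at 15.1 to 25.9 TPM.

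Among other annexins, ANXA6 had the line profile most like that of ANXA4 over the 11 line means of log2(TPM + 1) (Pearson r 0.727), followed by ANXA7 (0.505) and ANXA3 (0.452). The least like were ANXA1 (-0.651), ANXA2 (-0.452) and ANXA11 (-0.348). Of 7096 variable genes with a mean of at least 5 TPM, the 5 outside the family with the most similar profiles were TCF19 (0.942), RAD54B (0.937), GSR (0.933), TBC1D9B (0.927) and CCDC82 (0.927), each highest in OVCAR4 ResB. These coefficients describe 11 points of which several share a parent, and carry no test.

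ANXA1, a phospholipase inhibitor and ligand of formyl peptide receptors that is known for limiting inflammation, was the only annexin called in all 7 pairs, but in opposite directions. It was lower in the 4 OVCAR pairs and higher in PEA2, PEO4 and PEO6. OVCAR3 had 1784, 1945 and 1482 TPM, ResA 1719, 1165 and 1355 TPM, and ResB 336, 295 and 306.5 TPM. The ResB libraries were far below the others, whereas ResA and OVCAR3 overlapped in TPM. DESeq2 gave a log2 change of -2.57 ± 0.31 in ResB (SE, adjusted p 2.81e-14, 5.95-fold lower) and of -0.45 ± 0.14 in ResA (SE, adjusted p 0.00353). In ResA the adjusted p was 0.16 without replicate 2.

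A similar ordering of ANXA1 was measured in the OVCAR4 family. Its level was 656, 295 and 468 TPM in OVCAR4, 330.1, 375 and 375 TPM in ResA, and 99.9, 129 and 121 TPM in ResB. ResB did not overlap with the other lines, and ResA lay inside the parental range in TPM. The log2 change was -2.53 ± 0.32 in ResB (SE, DESeq2 adjusted p 1.27e-13, 5.77-fold lower) and -0.85 ± 0.30 in ResA (SE, adjusted p 0.0443, which became 0.315 without replicate 2 and 0.903 without replicate 3). ResB was lower than ResA in both families, by a log2 change of -2.13 ± 0.35 in OVCAR3 (SE, DESeq2 adjusted p 3.48e-08) and -1.67 ± 0.08 in OVCAR4 (SE, adjusted p 1.75e-86).

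In the patient pairs ANXA1 rose in all 3 resistant lines. PEA1 had 467, 503.5 and 397.5 TPM and PEA2 793, 819.5 and 1143 TPM. PEO1 had 907, 1153 and 606 TPM, PEO4 1684, 1850.0 and 1565 TPM, and PEO6 2728, 1491 and 1991 TPM. No resistant library fell inside the range of its sensitive line. Log2 changes were 1.11 ± 0.28 in PEA2 (SE, DESeq2 adjusted p 0.000294), 1.01 ± 0.21 in PEO4 (adjusted p 1.06e-05) and 1.22 ± 0.29 in PEO6 (adjusted p 0.000184). FPR1 and FPR2, genes of receptors for ANXA1, had mean levels of at most 0.266 TPM in 10 lines and were at 2.57 ± 1.67 and 0.570 ± 0.250 TPM (SD, n = 3) in PEA1.

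ANXA2, which joins S100A10 in a heterotetramer that binds plasminogen at the cell surface, was abundant everywhere. Of the 9 tested annexins it was called in the fewest pairs, 1 of 7. Its line means ran from 885 TPM in OVCAR4 to 3620.0 TPM in OVCAR3 ResA. PEO4 was the only resistant line with a call: 1645, 1591 and 1509 TPM against 2491, 2095 and 2588 TPM in PEO1, without overlap (log2 -0.56 ± 0.15 SE, DESeq2 adjusted p 0.00156, 0.148 without replicate 1). The other 6 pairs had log2 changes between -0.53 and 0.10 and were not called. OVCAR4 ResB was below OVCAR4 ResA (log2 -0.60 ± 0.08 SE, adjusted p 7.28e-12), but their levels overlapped, with 454, 1143 and 1291 TPM against 778, 1565 and 1773 TPM. Replicate 1 was the lowest of each line, and it was also the replicate with the high mitochondrial rRNA share.

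S100A10, the partner of ANXA2, was called lower in OVCAR3 ResA (log2 -0.48 ± 0.09 SE, DESeq2 adjusted p 1.76e-06) and PEO6 (-0.91 ± 0.22 SE, adjusted p 0.000193) and in neither of these pairs was ANXA2 called. PEO6 had 440.1, 326.5 and 453 TPM of S100A10, below the 758, 629 and 883 TPM of PEO1. S100A11, a partner of ANXA1 and ANXA2 among others, was lower in OVCAR3 ResA, PEA2, PEO4 and PEO6, with log2 changes of -0.37, -0.84, -0.90 and -1.41. S100A6, which binds several annexins, was at 605 ± 279 TPM in PEA1 and 2899 ± 327 TPM in PEA2 (SD, n = 3, log2 2.47 ± 0.32 SE, DESeq2 adjusted p 7.68e-14). It was also called higher in OVCAR3 ResA (log2 0.75) and lower in PEO4 (log2 -0.68). Of the 35 tests of S100 partner genes over the 7 pairs, 9 were called higher and 9 lower. The share of all tested genes called in these pairs was 7.67% to 47.0%.

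ANXA3, whose protein has been studied as a serum and drug-response marker in ovarian cancer, fell in both resistant lines of the OVCAR3 and PEO families and rose in PEA2. PEO1 had 273, 316 and 225 TPM, PEO4 35.7, 35.8 and 41.7 TPM, and PEO6 83.7, 54.0 and 51.9 TPM. The ranges were far apart, and PEO4 was 7.05-fold lower (log2 -2.82 ± 0.22 SE, DESeq2 adjusted p 1.14e-36) and PEO6 4.43-fold lower (log2 -2.15 ± 0.26 SE, adjusted p 4.17e-15). OVCAR3 had 235.5, 227.5 and 161 TPM against 105, 93.7 and 63.7 TPM in ResA and 92.7, 93.0 and 130 TPM in ResB, again without overlap. The log2 changes were -1.38 ± 0.11 in ResA (SE, DESeq2 adjusted p 7.63e-37) and -1.07 ± 0.32 in ResB (SE, adjusted p 0.0128). The ResB call was lost without replicate 1 (adjusted p 0.337) and without replicate 2 (adjusted p 0.455), and by edgeR (0.0904).

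In PEA2 ANXA3 reached 638, 636 and 805 TPM, the highest of any line, against 395.5, 378 and 317 TPM in PEA1 (log2 1.05 ± 0.26 SE, DESeq2 adjusted p 0.000246). The OVCAR4 lines all lay between 193 and 416 TPM and overlapped, with log2 changes of -0.19 in ResA and -0.50 in ResB on counts, neither called. On TPM these had the opposite sign, 0.33 and 0.05. Scaling to TPM shifted the median of all genes by 0.44 in OVCAR4 ResA and 0.48 in OVCAR4 ResB, and its part in these signs was not tested.

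ANXA5, the phosphatidylserine binder used as a probe of dying cells and an anticoagulant at cell surfaces, had a log2 change below 0 in each of the 7 pairs on counts, and was called in PEA2, PEO4 and PEO6. Its TPM-based change was above 0 in OVCAR3 ResA (0.01) and OVCAR4 ResA (0.14), so the shared direction held on counts but not on both scales. PEA1 had 872, 835 and 831 TPM, more than any other line, and PEA2 422, 380.3 and 328 TPM (log2 -1.05 ± 0.22 SE, DESeq2 adjusted p 5.56e-06). PEO1 had 188, 171 and 271 TPM, PEO4 115, 122 and 156 TPM, and PEO6 85.5, 80.3 and 119 TPM. The PEO lines were the lowest of the panel, and both resistant ones lay below PEO1. The log2 change was -0.63 ± 0.16 in PEO4 (SE, DESeq2 adjusted p 0.000566, 0.118 without replicate 1) and -1.16 ± 0.22 in PEO6 (SE, adjusted p 8.05e-07).

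TMEM30A, a subunit of the flippases that keep phosphatidylserine, the ligand of ANXA5, on the inner side of the membrane, was called higher by DESeq2 in PEA2 (log2 0.997), PEO4 (0.98) and PEO6 (0.74), the 3 pairs in which ANXA5 was called lower, and lower in OVCAR3 ResA (-0.33).

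ANXA6, a larger annexin with a duplicated core that acts in membrane repair and cholesterol transport, had the widest range of line means after ANXA9, 32.1-fold. PEA1 had 269, 118 and 274.5 TPM against 40.4, 37.5 and 31.0 TPM in PEA2, with no overlap (5.37-fold lower, log2 -2.42 ± 0.26 SE, DESeq2 adjusted p 1.51e-19). It was also lower in PEO4 and PEO6, where levels were low throughout: 15.2, 12.3 and 11.2 TPM in PEO1, 11.3, 9.54 and 3.68 TPM in PEO4 and 4.32, 6.19 and 10.2 TPM in PEO6. PEO4 overlapped with PEO1 and its call (log2 -0.75 ± 0.24 SE, DESeq2 adjusted p 0.00754) was lost without any one of the replicates (adjusted p 0.0612 to 0.068). The call in PEO6 (log2 -1.005 ± 0.31 SE, adjusted p 0.004) was lost without replicate 1 (0.166) or replicate 2 (0.119).

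In OVCAR3 ResB ANXA6 was called higher, with 20.3, 11.4 and 36.4 TPM against 11.7, 5.96 and 6.49 TPM in OVCAR3 (log2 1.29 ± 0.37 SE, DESeq2 adjusted p 0.0093). Its highest value came from replicate 3, the library with the lowest mitochondrial rRNA share. The log2 change was 0.96 without that replicate (adjusted p 0.0225), and the call was lost without replicate 1 (adjusted p 0.063), without replicate 2 (0.243) and by edgeR (0.0756). In the OVCAR4 lines replicate 1 again stood apart: ANXA6 was at 18.7 TPM in ResA replicate 1 and 60.4 and 51.7 TPM in the others, and at 19.5 TPM in ResB replicate 1 and 76.9 and 91.6 TPM in the others, beside 32.5, 20.8 and 24.7 TPM in OVCAR4. ANXA6 was not called in either pair, but without replicate 1 the adjusted p by DESeq2 was 0.0309 in ResA and 2.23e-08 in ResB.

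MYOF, a ferlin that acts with annexins in membrane repair, showed the same pattern of libraries. It was at 36.0, 101 and 129.5 TPM in OVCAR4 ResA and 34.6, 131 and 155 TPM in OVCAR4 ResB, above the 27.9, 18.04 and 17.7 TPM of OVCAR4, and was called in both (log2 1.40 ± 0.41 SE, DESeq2 adjusted p 0.00879, and 1.56 ± 0.44 SE, adjusted p 0.00408). It was higher in PEA2 (log2 1.48 ± 0.31 SE, adjusted p 7.55e-06) and lower in PEO4 (log2 -0.75) and PEO6 (log2 -1.005). Of the 56 tests in the list of membrane repair and calcium-binding partners over the 7 pairs, 11 were called higher and 10 lower. Beside these, 7.67% to 47.0% of all tested genes were called, depending on the pair.

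ANXA9, an annexin whose core has lost much of its calcium binding, changed in opposite directions in the OVCAR families. OVCAR4 had 4.81, 4.28 and 5.73 TPM, ResA 25.5, 41.9 and 42.4 TPM, and ResB 30.4, 61.7 and 59.7 TPM. It was 5.06-fold higher in ResA (log2 2.34 ± 0.33 SE, DESeq2 adjusted p 1.56e-10) and 6.63-fold higher in ResB (log2 2.73 ± 0.32 SE, adjusted p 5.46e-15). Both calls held without any one replicate number and by edgeR. OVCAR3 had 8.91, 8.45 and 8.87 TPM against 2.02, 2.56 and 2.71 TPM in ResA and 2.45, 2.52 and 3.63 TPM in ResB, without overlap. The fall was 4.04-fold in ResA (log2 -2.02 ± 0.24 SE, DESeq2 adjusted p 1.3e-15) and 3.41-fold in ResB (log2 -1.77 ± 0.41 SE, adjusted p 0.000555, but 0.0826 without replicate 1 and 0.101 without replicate 2).

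In the patient families ANXA9 was not called. The PEO lines had 4.21 to 11.2 TPM, with log2 changes of -0.36 in PEO4 and 0.25 in PEO6. In PEA1 and PEA2 it was close to the limit of detection, with 3 or 4 counts per library in PEA1 and 3 to 7 in PEA2.

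ANXA7 and ANXA11 have long amino-terminal tails and bind the calcium sensors sorcin (SRI) and ALG-2 (PDCD6), and ANXA11 also tethers RNA granules to lysosomes. Both were evenly expressed, with line means from 82.4 to 171 TPM for ANXA7 and from 81.6 to 185 TPM for ANXA11. PEA2 had more ANXA11 than PEA1, 203, 181 and 169 TPM against 86.1, 51.9 and 107 TPM (2.55-fold, log2 1.35 ± 0.24 SE, DESeq2 adjusted p 6.52e-08). The only other call for ANXA11 was in OVCAR3 ResA (log2 -0.26 ± 0.10 SE, adjusted p 0.0316), and it was lost without any one replicate (adjusted p 0.0874 to 0.26).

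ANXA7 was higher in PEA2, with 158, 138 and 146 TPM against 110, 101 and 112 TPM (log2 0.59 ± 0.22 SE, DESeq2 adjusted p 0.0185, 0.256 without replicate 1). PEO4 had 155.5, 156 and 168 TPM, above the 106, 92.1 and 140 TPM of PEO1 (log2 0.56 ± 0.16 SE, DESeq2 adjusted p 0.00237, but 0.155 without replicate 1 and 0.0705 without replicate 2). PEO6 did not share this: it had 82.8, 77.0 and 103 TPM and lay below PEO4 (log2 -0.94 ± 0.28 SE, adjusted p 0.00793, 0.385 without replicate 2). In OVCAR3 ResA ANXA7 was lower (log2 -0.39 ± 0.11 SE, DESeq2 adjusted p 0.00204, 0.149 without replicate 1), although the TPM of the lines overlapped.

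ANXA10, known mainly from gastric epithelium, was not measurable in most lines. It had 0 counts in 26 of 33 libraries, which allows a level of up to 0.0819 to 0.166 CPM depending on the depth, counting error only. PEO6 had 6, 2 and 4 counts in its replicates, and no other library had more than 2. Other annexin genes were also low. ANXA8 and its near-identical copy ANXA8L1, between which reads may be split, had 7.41 ± 1.49 and 10.2 ± 2.28 TPM (SD, n = 3) in PEA2 and 1.55 ± 0.252 and 2.97 ± 0.454 TPM in PEA1, and were at or below 1.12 TPM in every other library. ANXA13 was at 3.92, 6.34 and 3.44 TPM in PEO6 and at or below 0.937 TPM in every other library. ANXA2P2 was not analysed here.

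**Figure D4:**
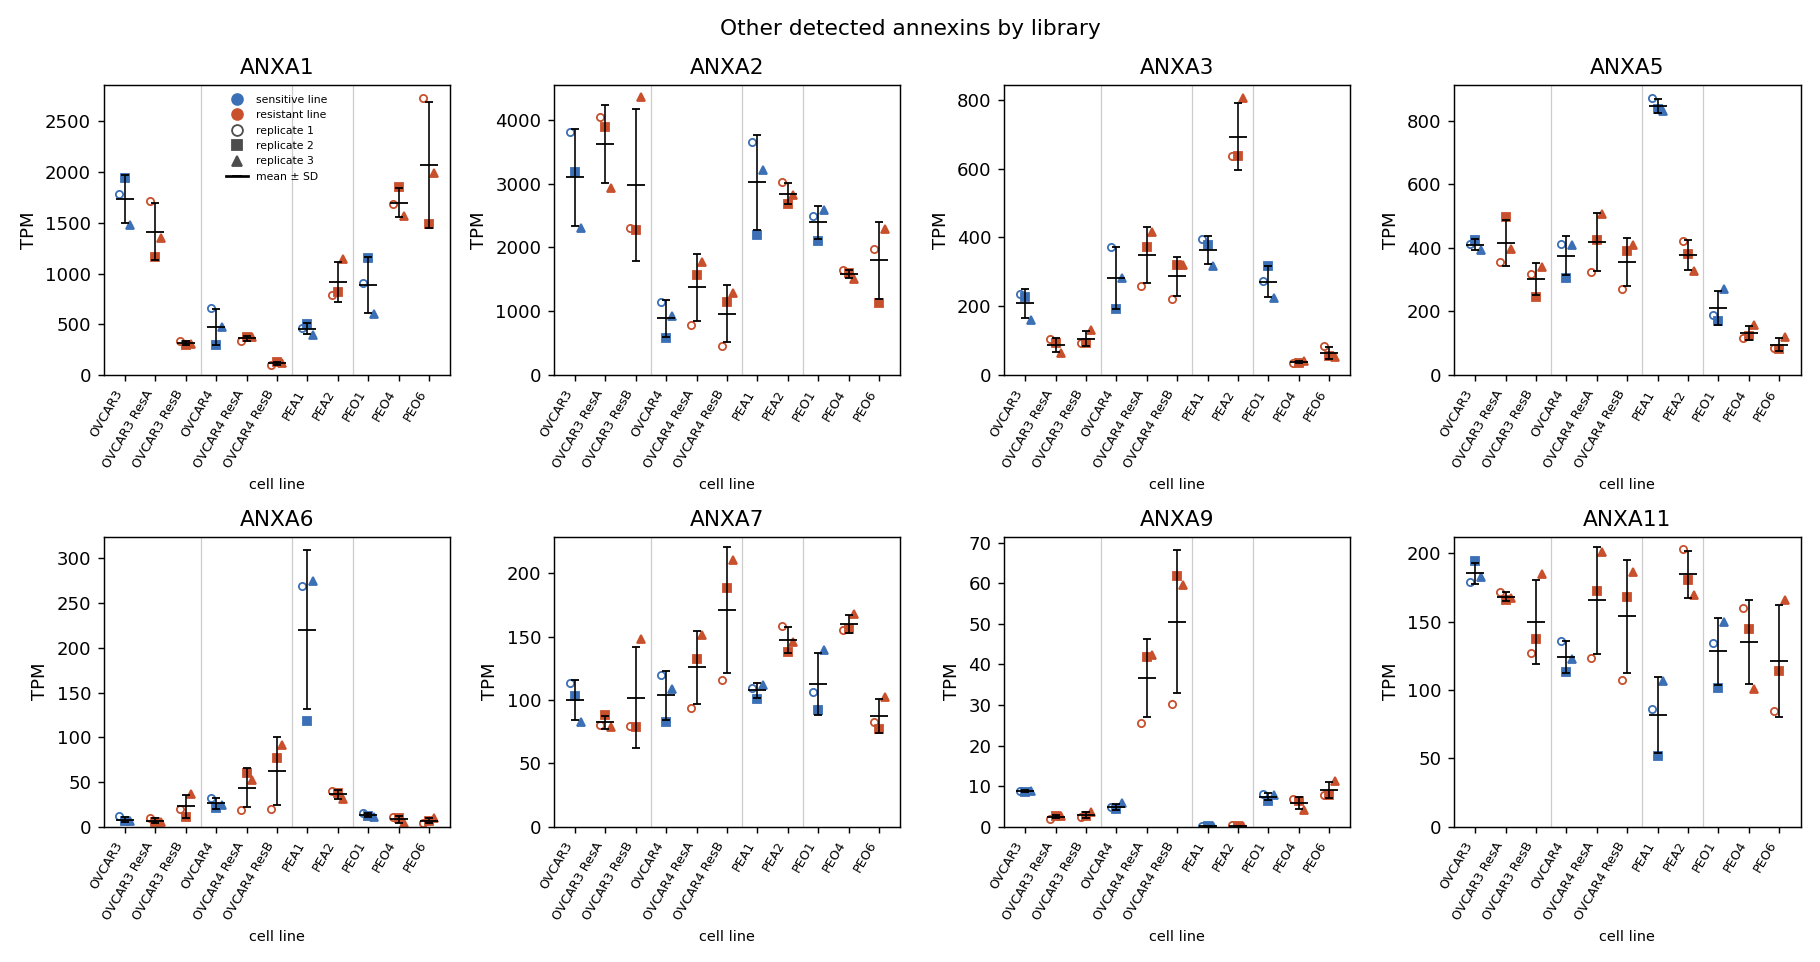
Each panel shows the TPM (linear axis from 0) of 1 annexin in the 33 libraries, with shape giving the replicate, colour the role of the line, and bars the mean ± SD of 3 replicates. PEA1 stands high for ANXA5 and ANXA6, and the OVCAR4 resistant lines for ANXA9. Replicate 1 of the OVCAR4 resistant lines lies below the other replicates in every panel.

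The resistant lines of one family were also compared with each other. OVCAR4 ResB and OVCAR4 ResA differed in 8 of 9 tested annexins (4 higher, 4 lower in ResB), beside 32.8% of all tested genes. ANXA4, ANXA6, ANXA7 and ANXA9 were higher in ResB, and ANXA1, ANXA2, ANXA3 and ANXA5 lower. Without the replicate block 2 of these calls were made. OVCAR3 ResB and OVCAR3 ResA differed in 2, ANXA1 and ANXA6 (log2 1.67 ± 0.38 SE, DESeq2 adjusted p 0.000274), beside 13.5% of genes. PEO6 and PEO4 differed in ANXA7 only, beside 18.2% of genes.

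A test with the line as the unit, on counts summed over replicates and with family as a covariate, asked whether any annexin differed between the 7 resistant and 4 sensitive lines. DESeq2 called 0 of the 10 annexins and 0.286% of all tested genes, and edgeR also called 0 (1 at an unadjusted p under 0.05). At an unadjusted p under 0.05 by DESeq2 there were 2, ANXA3 (log2 -1.005 ± 0.50 SE) and ANXA5 (log2 -0.68 ± 0.24 SE). ANXA4 had a line-level log2 change of 0.24 ± 0.45 (SE, DESeq2 adjusted p 1), and it was -0.25 without the OVCAR4 family. The change itself differed between pairs: a likelihood ratio test of 7 separate changes against 1 common change called 8 of 9 tested annexins, beside 70.2% of all genes. ANXA2 was the exception (DESeq2 adjusted p 0.117).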

How the data were processed

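RNA of 33 libraries (11 lines, 3 replicates each) was analysed from gene tables. The authors prepared poly(A) libraries, sequenced one pool over several runs, and ran the nf-core RNA-seq pipeline with salmon on GRCh38, which the submitters' processing notes also name, together with DRAGEN. The labels give no run batch. The authors deposited expected counts (not normalised, 18058985 to 43394009 per library, 88.4% whole) and a TPM table, which divides by length and keeps no depth. Roles of lines came from the study's text, and groups and replicate numbers from the titles.

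Expected counts were rounded and compared in DESeq2 1.42.0 (R 4.3.3, Wald test, replicate number as a block as in the study, 6 libraries per comparison, no filter). A gene was called where its p-value, adjusted over all genes after Benjamini and Hochberg, was under 0.05. Alternatives were edgeR 4.0.16, no block, TMM factors, a mean count of at least 10, limma 3.58.1 on log2(TPM + 1) or log2(TPM + 0.1) with a mean TPM of at least 1 or no filter, all 33 libraries in one fit, and leaving out each replicate number or family. Fits were tested on simulated counts. Same-numbered libraries deviated together (all 3 correlations over 0.1) in OVCAR3 ResA against OVCAR3 (0.732, 0.298 and 0.529) and OVCAR4 ResB against OVCAR4 ResA (0.641, 0.492 and 0.515), where the block was kept as pairing. They did not in the other comparisons, where the lowest correlation was -0.622 (OVCAR3 ResB against OVCAR3 ResA). There too the main fit kept the block, as in the study.

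The members, gene lists and tests were chosen with earlier results of these data known. Named were all 10 members, ANXA8, ANXA8L1, ANXA13, S100A10, S100A11, S100A6 and MYOF whatever they showed, the 5 genes and the 3 annexins most like ANXA4 over line means (mean TPM of at least 5, SD of at least 0.5 on log2), and the 3 annexins least like it. Depth limits only low genes: a library at 0 counts allows 3 counts. Coordinates and promoters are from RefSeq GRCh38.p14, matched by symbol for 10 of 10 annexins.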

Additional observations from a re-analysis of the deposited data

Results flagged for a closer look

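The resistant minus sensitive change of 8 annexins differed between the 7 pairs by a likelihood ratio test in DESeq2 over all 33 libraries. The adjusted p was 1.98e-68 for ANXA9, 1.96e-33 for ANXA1, 6.21e-27 for ANXA3, 2.14e-26 for ANXA4, 3.96e-17 for ANXA7, 1.12e-11 for ANXA11, 1.72e-09 for ANXA6 and 9.59e-05 for ANXA5. By edgeR the same test gave adjusted p of 6.52e-11, 5.14e-09, 4.47e-08, 1.97e-08, 2.36e-05, 3.18e-05, 9.57e-05 and 0.00308 in that order. For ANXA5 the highest value over 6 alternatives was 0.152, and for the other 7 it was at most 0.000329. Of all genes tested, 70.2% passed the DESeq2 test. With 3 libraries per line, single libraries were not examined as outliers.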

How the results depend on the processing

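Counts of called annexins depended on the tool more than their directions did, and no annexin called by the study's model changed sign under any alternative. edgeR called 2 in OVCAR3 ResB, 1 in OVCAR4 ResA and 0 in PEO6 against PEO4, where 2 had an unadjusted p under 0.05. limma on log2(TPM + 1) or log2(TPM + 0.1) called 3 in OVCAR3 ResA, 1 in OVCAR3 ResB, 1 in OVCAR4 ResA, 4 in PEO4, 1 in OVCAR3 ResB against ResA and 0 in PEO6 against PEO4 (3 at an unadjusted p under 0.05). Without a filter limma called 3 in OVCAR3 ResA, 3 in PEO4 and 5 in OVCAR4 ResB against ResA. It called 0 in OVCAR3 ResB, OVCAR4 ResA, OVCAR4 ResB, OVCAR3 ResB against ResA and PEO6 against PEO4, where 4, 2, 3, 2 and 5 had an unadjusted p under 0.05. With all 33 libraries in one fit 3 were called in OVCAR3 ResA, 4 in PEO4, 3 in OVCAR4 ResB against ResA and 5 in PEO6 against PEO4. Without the replicate block 2 were called in OVCAR3 ResA, 2 in OVCAR4 ResB against ResA and 2 in PEO6 against PEO4. Removing the block moved no other count by over 1.5 times. Leaving out one replicate number gave 3 to 4 calls in OVCAR3 ResA, 1 to 4 in OVCAR3 ResB, 1 to 4 in OVCAR4 ResA, 3 to 5 in OVCAR4 ResB, 2 to 7 in PEO4, 1 to 2 in OVCAR3 ResB against ResA, 3 to 8 in OVCAR4 ResB against ResA and 0 to 4 in PEO6 against PEO4, with 1 at an unadjusted p under 0.05 in each of the fits that called 0. The causes were not tested.

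Values that changed sign were called under neither fit. In the 3 limma fits on TPM these were ANXA5 in OVCAR3 ResA (0.0057 in log2), ANXA3 (0.33), ANXA5 (0.14), ANXA7 (0.27), ANXA11 (0.39) and S100A11 (0.15) in OVCAR4 ResA, ANXA2 (0.037), ANXA3 (0.054), ANXA11 (0.27 or, with the smaller pseudocount, 0.28) and S100A10 (0.12) in OVCAR4 ResB, and ANXA2 (-0.056) and S100A10 (-0.053) in PEA2. S100A10 in PEA2 was also -0.030 without the replicate block and -0.015 with all 33 libraries, and MYOF in OVCAR3 ResB against ResA was -0.0071 with TMM factors. Over the fits without one replicate number, log2 changes ran across 0 for ANXA2 (-0.48 to 0.042), ANXA7 (-0.35 to 0.072), S100A6 (-0.29 to 0.73) and MYOF (-0.43 to 0.43) in OVCAR3 ResB, for ANXA2 (-0.21 to 0.42), ANXA3 (-0.38 to 0.018), ANXA6 (-0.26 to 0.54), S100A10 (-0.12 to 0.76) and S100A11 (-1.19 to 0.12) in OVCAR4 ResA, for ANXA9 (-0.37 to 0.53) and S100A10 (-0.13 to 0.39) in PEA2, and for ANXA11 (-0.049 to 0.29) in PEO4. They also did so for ANXA11 (-0.29 to 0.012) and S100A6 (-0.094 to 0.39) in PEO6, for ANXA4 (-0.29 to 0.37), S100A10 (-0.31 to 0.41), S100A6 (-1.15 to 0.10) and MYOF (-0.54 to 0.38) in OVCAR3 ResB against ResA, for ANXA1 (-0.16 to 0.45), ANXA2 (-0.13 to 0.35), ANXA6 (-0.92 to 0.23), ANXA11 (-0.57 to 0.015) and MYOF (-0.67 to 0.015) in PEO6 against PEO4, and for S100A6 (-0.25 to 0.53) at the level of lines. At the level of lines the sign turned for ANXA9 (0.85) without the OVCAR3 family, ANXA1 (0.17) and ANXA4 (-0.25) without the OVCAR4 family, and ANXA6 (0.071), ANXA7 (-0.051), ANXA11 (-0.17) and S100A6 (-0.23) without the PEA family. Depth limited only ANXA10, ANXA9 in the PEA lines, and the low copies ANXA8, ANXA8L1 and ANXA13.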

Other observations

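Neighbours of ANXA4 and ANXA9 on the chromosome were tabulated after the values of both genes had been seen. Of the protein-coding genes within 1 Mb of ANXA4, DESeq2 called 2 of 17 tested in OVCAR4 ResA (ADD2 and ANTXR1, both higher) and 2 of 18 in OVCAR4 ResB (ANTXR1 and PCYOX1, both higher), with median log2 changes of 0.24 and 0.02, beside 11.9% and 17.9% of all tested genes. ANTXR1, an anthrax toxin receptor of the cell surface, was at 4.48 TPM in OVCAR4, 13.3 TPM in ResA and 17.7 TPM in ResB (mean of 3). In PEA2, where ANXA4 was lower, ANTXR1 was also lower, at 3.35 TPM against 54.9 TPM in PEA1 (log2 -4.02, DESeq2 adjusted p 4.09e-62), and 6 of 17 neighbours were called (2 higher, 4 lower), beside 47.0% of all tested genes. Around ANXA9, 2 of 46 tested neighbours were called in OVCAR4 ResA (CTSS and MLLT11, both higher) and 6 of 49 in OVCAR4 ResB (5 higher, 1 lower), with median log2 changes of -0.04 and -0.08, beside the same 11.9% and 17.9% of all tested genes. In each of these cases the share of neighbours called was no higher than that over all genes. Between OVCAR4 ResB and OVCAR4 ResA, 3 of 18 tested neighbours of ANXA4 were called higher and 4 lower. For ANXA9, 10 of 47 were higher and 8 lower there, beside 32.8% of all tested genes. In PEA2, 4 of 48 neighbours of ANXA9 were higher and 19 lower, beside 47.0%. These last shares lay slightly above those over all genes.

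Genes of the plasminogen system, which meets the ANXA2 and S100A10 complex at the cell surface, were called in several pairs, whereas ANXA2 was called in 1 of 7. Calls over all tested genes in these pairs made up 7.67% to 47.0%. PLAT, the tissue activator, was called higher in PEA2, PEO4 and PEO6, at 326 ± 2.32, 62.1 ± 10.7 and 54.4 ± 8.33 TPM against 10.3 ± 2.05 TPM in PEA1 and 9.01 ± 2.68 TPM in PEO1 (SD, n = 3), and lower in OVCAR3 ResA. PLAU, the urokinase activator, was called higher in OVCAR3 ResA, OVCAR3 ResB, OVCAR4 ResB and PEA2 and lower in PEO4 and PEO6. In OVCAR3 it was at 24.3 ± 3.91 TPM, in OVCAR3 ResA at 145 ± 24.2 TPM and in OVCAR3 ResB at 254 ± 131 TPM (SD, n = 3). S100A4, a calcium-binding partner in the same list as S100A10, was called higher in 5 of 7 pairs and lower in OVCAR4 ResB. It was at 405 ± 64.8 TPM in OVCAR3 and 2817 ± 134 TPM in OVCAR3 ResA, and at 15.7 ± 1.37 TPM in PEA1 and 485 ± 1.21 TPM in PEA2 (SD, n = 3). PLAT, PLAU, S100A4 and TMEM30A were picked for mention after their values had been seen.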
